A study of Mus musculus with 54 samples.

Results

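Proliferation was followed through 8 genes of the cell cycle, Mki67, Top2a, Cdk1, Ccnb1, Birc5, Pcna, Mcm2 and Mcm6, which were taken as a fixed list of names among the 28863 gene symbols listed in the 10x and C57BL/6J bulk count tables. The study scored S and G2/M phases in dissociated mouse kidney cells and in kidney nuclei, and the 8 genes were used to ask whether dividing cells stood behind those calls and of which type they were. The series held 54 samples in 18 groups of 3, of which 39 were 10x libraries and 15 were bulk RNA samples. All tissue was kidney from untreated adult mice.

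The first mice were males of the strain labelled AFAPIL.1DEL C57BL/6J, 19 weeks old and from 1 litter. Their kidneys were dissociated cold, with a protease that works near freezing, or warm, with an enzyme mix at body temperature. Each suspension was profiled fresh as cells and in bulk, after cryopreservation for 6 weeks, and after methanol fixation and storage for 3 months. The second mice were Balb/c males of 18 weeks from 1 litter, with cold-dissociated fresh cells, nuclei from flash-frozen kidney and whole-kidney bulk RNA. The third were wild type Balb/c females of 15 weeks that had been breeders. They gave cold-dissociated fresh cells, the same suspensions cryopreserved for 2 weeks, bulk RNA of whole kidney and of the suspension, and nuclei by 3 protocols, SN_FANS_3x500g, SN_FANS_1x2000g and SN_sucrose. The male nuclei were made by SN_FANS_3x500g. The 10x libraries of the first and second mice used chemistry version 2, and those of the third used version 3. Per the methods, the 3 libraries of a group came from kidneys of 3 different mice, and fresh, preserved and bulk suspension samples share suspensions.

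The cell cycle is read in RNA through genes that are switched on in sequence. Genes of DNA replication rise from late G1 into S phase, and genes of chromosome condensation, spindle assembly and cytokinesis rise in G2 and M. Promoters of these genes often hold CHR elements, at which the DREAM complex represses, CCAAT boxes or E2F sites. In the healthy adult kidney most tubule cells are quiescent, and podocytes are regarded as post-mitotic.

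Pcna encodes the sliding clamp of DNA polymerases and also serves DNA repair, so it is expressed outside division. Mcm2 and Mcm6 are subunits of the replicative helicase. Mki67 coats mitotic chromosomes, Top2a untangles sister DNA, Cdk1 is the kinase that drives entry into mitosis, Ccnb1 is its cyclin, and Birc5 (survivin) is part of the chromosomal passenger complex. The last 5 are called the G2/M members here, although Mki67 and Top2a are already made in S phase.

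The 250 bases before the start of each gene were searched on both strands, and all 8 members matched a promoter in the RefSeq table of GRCm38.p6. The motifs were CHR (TTTGAA or TTCGAA), the CCAAT box (CCAAT) and E2F (TTTNNCGC), and a base shared by overlapping matches was capitalised once. A CHR match was present before Mki67, Top2a, Cdk1 and Mcm2, 4 of 8, beside 17.15% of 32851 mouse promoters of the same length. A CCAAT box was present in 7 of 8, all but Birc5, beside 33.85% of promoters, and 5 of 8 had at least 2, beside 10.09%. An E2F match was present before Cdk1 and Mcm6, 2 of 8, beside 4.28%. Both CHR and CCAAT were found in 4 of 8, beside 6.021%. The match is to letters only and shows no binding, and the absence of a match in Birc5 says only that these letters were not in that window. The last 150 bases before the start of 4 members follow, 5′ to 3′ on the gene's strand, with CHR, CCAAT and E2F matches on either strand in capitals. They were chosen to show a promoter dense in CHR and CCAAT (Top2a), one with all 3 motifs (Cdk1), one with none (Birc5) and a replication gene with E2F matches (Mcm6). Top2a lies at chr11:99024190-99024339 on the minus strand, Cdk1 at chr10:69352913-69353062 on the minus strand, Birc5 at chr11:117849087-117849236 on the plus strand and Mcm6 at chr1:128359706-128359855 on the minus strand.
Top2a: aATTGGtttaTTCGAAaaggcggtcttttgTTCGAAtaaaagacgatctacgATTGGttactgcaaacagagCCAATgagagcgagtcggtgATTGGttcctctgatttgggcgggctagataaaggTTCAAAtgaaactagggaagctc
Cdk1: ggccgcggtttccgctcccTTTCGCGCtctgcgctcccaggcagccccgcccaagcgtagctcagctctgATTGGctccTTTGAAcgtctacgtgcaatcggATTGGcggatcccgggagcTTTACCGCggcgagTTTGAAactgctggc
Birc5: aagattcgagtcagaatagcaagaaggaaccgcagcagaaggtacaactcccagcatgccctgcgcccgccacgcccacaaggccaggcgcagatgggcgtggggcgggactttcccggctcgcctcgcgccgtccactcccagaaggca
Mcm6: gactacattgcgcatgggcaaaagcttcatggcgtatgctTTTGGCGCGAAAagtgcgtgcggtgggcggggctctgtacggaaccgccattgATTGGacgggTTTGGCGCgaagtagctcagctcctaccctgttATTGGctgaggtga

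In GRCm38, Mki67 spans chr7:135689784-135716361, Top2a chr11:98992943-99024189, Cdk1 chr10:69335146-69352938 and Ccnb1 chr13:100778650-100786570, all on the minus strand. Birc5 spans chr11:117849251-117855743 on the plus strand. Pcna spans chr2:132249162-132253314, Mcm2 chr6:88883474-88898780 and Mcm6 chr1:128331590-128359664, all on the minus strand. Mki67 overlaps Gm45240 on the opposite strand by 674 bases, and Top2a overlaps 2 small genes, Gm26394 and Gm23451, by 115 and 122 bases. The annotation also holds Ccnb1-ps, Pcna-ps1 and Pcna-ps2, pseudogene copies that could take reads from Ccnb1 and Pcna. Counts of these 4 genes carry that uncertainty.

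A filter of the authors sets what can be read of the members in cells. Genes were kept where at least 10 barcodes had them, and the tables show that this was applied library by library before libraries were joined with zeros. In the 39 10x libraries, 77569 gene entries of 586829 stood at 0 and only 7104 (1.211%) held 1 to 9 barcodes. A member listed at 0 in a library was therefore seen in fewer than 10 barcodes, which is not a measured 0. Of the 96 pairs of a member and a fresh cell library, 52 had counts, 32 stood at 0 and 12 were not listed, whereas all 96 pairs in nuclei had counts. In preserved libraries, 54 of 120 pairs had counts. The 3 male cell libraries had counts for none of the 5 G2/M members, and 1 fresh library, female cells replicate 2, had all 5.

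Depth also differed between kinds of library. The median was 1192 to 1542 UMIs a barcode in fresh C57BL/6J cells, 343 to 688 in male cells, 2293 to 2990 in female cells, 946 to 1025 in male nuclei and 3108 to 3893 in female nuclei. Bulk samples held 5969212 to 8184923 counts in C57BL/6J mice, 2326998 to 7879117 in males and 21984996 to 31093949 in females. Between libraries of a batch, 0.518% to 6.21% of barcodes shared their sequence with a barcode of another library, at most 101 barcodes for any pair.

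In bulk RNA, which no barcode filter touches, all 8 members were detected in all 15 samples. Per kilobase of exon, Pcna was highest of the 8 in every group, at 15.4 ± 0.662 CPM per kb in cold-dissociated C57BL/6J suspensions (SD, n = 3) and 13.6 ± 0.453 in female whole kidney. In the same groups Mki67 was at 0.953 ± 0.0795 and 0.456 ± 0.0871 CPM per kb. Birc5 was at 0.124 ± 0.0817 in the cold C57BL/6J suspensions, a level that rests on 1 to 4 counts a sample.

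**Figure D1:**
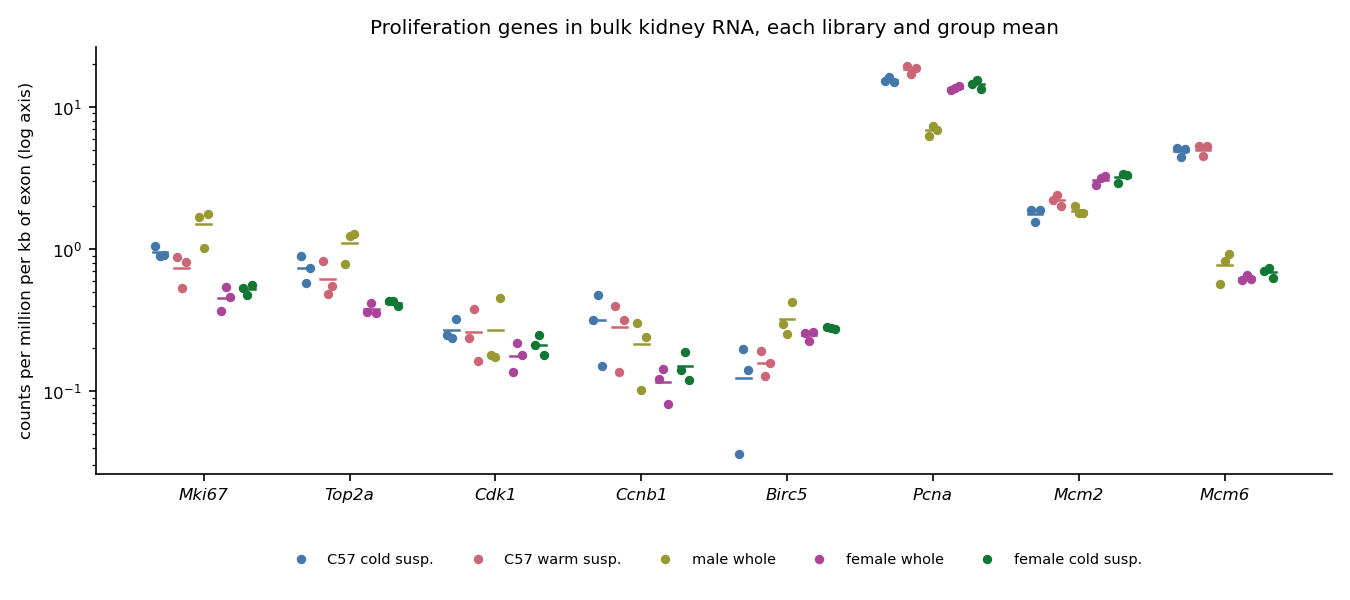
Level of the 8 members in each bulk sample, in CPM per kb of exon on a log axis, with 1 point a sample and the groups set apart by colour. Pcna lies above every other member in every group, and Mcm6 is the second in C57BL/6J samples and lower in the Balb/c samples.

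Mcm6 was second in C57BL/6J suspensions, at 4.88 ± 0.408 CPM per kb cold and 5.02 ± 0.455 warm, above Mcm2 at 1.77 ± 0.199 and 2.21 ± 0.195. In Balb/c whole kidney the order of the helicase subunits was turned, with Mcm2 at 1.86 ± 0.124 in males and 3.09 ± 0.221 in females and Mcm6 at 0.774 ± 0.181 and 0.623 ± 0.0250 (all SD, n = 3). The 2 strains did not overlap in Mcm6. In female Balb/c suspensions Mcm2 was at 3.20 ± 0.262 and Mcm6 at 0.689 ± 0.0593. Strain, batch, age and read length changed together, with preparation for whole kidney. For females, sex and poly(A) selection in place of rRNA depletion changed too. Their parts in the difference cannot be told apart. The highest group means of Mki67 and Top2a, 1.49 ± 0.409 and 1.10 ± 0.270, were in male whole kidney. Cdk1, Ccnb1 and Birc5 had the lowest means in every group, with Birc5 above Cdk1 in the Balb/c groups.

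Warm against cold dissociation did not move any member in bulk RNA past the test. Mki67 counts were 86, 54 and 58 in the cold and 68, 37 and 61 in the warm suspensions. In CPM these were 10.5, 9.05 and 9.21 cold and 8.83, 5.35 and 8.17 warm, and did not overlap. The log2 fold change of Mki67, warm against cold, was -0.39 ± 0.19 (SE, n = 3 a group, adjusted p = 0.263, edgeR's quasi-likelihood test with Benjamini-Hochberg adjustment). Pcna counts were 298, 232 and 226 cold and 357, 285 and 338 warm, or 36.4, 38.9 and 35.9 against 46.3, 41.2 and 45.3 CPM, which did not overlap either, with a log2 fold change of 0.23 ± 0.084 (adjusted p = 0.116, edgeR). Mcm2 was apart too, at 10.7 to 13.2 CPM cold and 13.9 to 16.6 warm (log2 fold change 0.28, adjusted p = 0.248, edgeR). Top2a and Mcm6 overlapped. The share of all genes that were apart in this way is not given here, so such gaps, here and below, only describe the samples. Of the 5 members that passed the low count filter, 0 were called, beside 8.68% of 14102 genes (5.42% higher and 3.26% lower). At an unadjusted p under 0.05 there was 1 member, Pcna (edgeR), and DESeq2 called 0. Cdk1, Ccnb1 and Birc5, with 1 to 13 counts a sample, were too low to test. In bulk RNA, fewer cells of a type and less RNA in each cell cannot be told apart.

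The rest of the pathway moved little in that comparison, with the exceptions among its regulators. None of the 28 other S list genes and none of the 27 other G2/M list genes tested was called, and their median log2 fold changes were -0.01 and -0.04, beside -0.01 for all genes. Of 12 cell cycle drivers, Myc, a transcription factor of the growth response, rose by 0.87 (adjusted p = 0.0198, edgeR), a call lost in 4 of 6 fits that left out 1 sample. E2f2, an activator of replication genes, led the 2 drivers that fell, at -0.87 (adjusted p = 0.00845). Of 11 brakes, Tob1, an antiproliferative protein, rose by 0.60 (adjusted p = 0.000445).

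No member passed the test between whole female kidney and its cold-dissociated suspension. Birc5 did not overlap, at 0.769 to 0.894 CPM in whole kidney and 0.930 to 0.955 in suspensions (log2 fold change -0.15, adjusted p = 0.710, edgeR), and the other members overlapped. Mki67 counts were 115, 163 and 134 in whole kidney and 117, 125 and 134 in suspensions, and Pcna counts were 985, 969 and 984 against 762, 981 and 762, from larger libraries for whole kidney. After scaling, the 8 log2 fold changes ran from -0.04 for Mcm2 (95% interval -0.20 to 0.12) to -0.37 for Ccnb1 (95% interval -0.98 to 0.24), with adjusted p from 0.465 to 0.788 (edgeR). Thus 0 of 8 members were called, beside 20% of 16538 genes (12.1% higher and 7.91% lower), 0 of 8 were under an unadjusted p of 0.05, and DESeq2 called 0. The intervals leave room for a difference of the mitotic genes.

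In the lists, 3 of 36 S list genes passed, with Brip1, a repair helicase, higher by 0.66 (adjusted p = 0.0317) and Uhrf1, which maintains DNA methylation, at -0.54 (adjusted p = 0.0393) in whole kidney, neither of them called by DESeq2 or in 5 of 6 fits without 1 sample. Of 44 G2/M list genes, Ect2, the exchange factor of cytokinesis, was higher by 1.66 (adjusted p = 4.2e-05) and 2 were lower, led by the centromere histone Cenpa. The change in Cenpa was -0.93 (adjusted p = 0.0169). Ccnd1, cyclin D1, led the 2 drivers of 14 that were lower, at -0.26 (adjusted p = 0.0204), and Cdkn1c, a kinase inhibitor made by podocytes, led the 2 brakes of 12 that were lower, at -0.31 (adjusted p = 0.00963, all edgeR). The Ccnd1 call was lost in 4 of 6 fits without 1 sample and the Cenpa call in 1.

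In freshly profiled C57BL/6J cells, warm against cold dissociation moved none of the members tested past the test. Pcna had 114, 138 and 139 UMIs in cold-dissociated and 142, 233 and 128 in warm-dissociated libraries, or 21.5, 17.1 and 17.9 CPM, counts scaled to the total of the library, in the cold ones. Mki67 had 23, 10 and 25 UMIs cold, and 17 and 24 warm, with the third warm library listed at 0. The groups overlapped for both genes. Log2 fold changes, warm against cold, were 0.17 for Pcna (SE 0.15, adjusted p = 0.493) and -0.81 for Mki67 (SE 0.90, adjusted p = 0.585, edgeR). Of 5 members tested, 0 were called, beside 14.9% of 12061 genes (7.86% higher and 7.07% lower), 0 were under an unadjusted p of 0.05, and DESeq2 called 0.

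Among other cycle genes, 2 of 24 S list genes passed, Rfc2 upward by 0.43 (adjusted p = 0.0194) and Atad2 downward with 3 libraries at 0. Of 21 G2/M genes, Cks2, a small partner of cyclin-dependent kinases, rose by 0.49 (adjusted p = 0.0102). Myc rose by 0.95 (adjusted p = 0.0389, not called by DESeq2) among 10 drivers, of which 2 fell, E2f1 with the lower fitted value but 2 libraries at 0. Of 11 brakes 2 passed, Cdkn1a (p21) up by 1.03 (adjusted p = 0.0173) and Cdkn1c down, at -4.87 (SE 0.35, adjusted p = 8.33e-05, edgeR). Cdkn1c stood at 164 ± 29.4 CPM in cold and 4.79 ± 3.00 in warm libraries (SD, n = 3). Without 1 library the call was lost in 5 of 6 fits for Myc, 4 for Rfc2, 3 for Cdkn1a and 2 for Cks2. Podocyte-like barcodes numbered 55, 148 and 150 in the cold libraries and 0, 4 and 1 in the warm ones, and their part in the Cdkn1c difference was not tested.

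In library sums, replication members were higher after cryopreservation, Pcna and Mcm2 in C57BL/6J cells and Mcm2 and Mcm6 in females. The makeup of the libraries moved with storage. PT-like barcodes were 48.5% to 56.6% of fresh and 0.111% to 0.705% of stored C57BL/6J cells, and 36.3% to 39.9% and 3.63% to 6.22% in females. The 15 PT markers summed to 12236 to 18824 CPM fresh and 165 to 283 CPM stored in C57BL/6J cells, where 4 to 8 of the 15 were above 0 in stored libraries, and to 9544 to 10671 and 1307 to 2214 CPM in females. In C57BL/6J cold-dissociated cells, Pcna stood at 21.5, 17.1 and 17.9 CPM fresh and 37.4, 45.2 and 46.2 after storage, and Mcm2 at 2.64, 3.48 and 3.60 fresh and 10.5, 10.9 and 8.16 after storage. Neither gene overlapped between the groups. After TMM scaling, which takes account of the shift of the whole library, Pcna was higher by 0.75 (SE 0.15, adjusted p = 0.00382) and Mcm2 by 1.13 (SE 0.34, adjusted p = 0.0248, edgeR). Thus 2 of 4 tested members rose, beside 21.8% of 11392 genes that rose and 50.7% called in either direction. The aliquots come from the same suspensions, and with the animal code as a block Pcna stayed at 0.75 (adjusted p = 0.0155) while Mcm2 gave 1.14 (adjusted p = 0.148). The Mcm2 call was also lost in 4 of 6 fits that left out 1 library, with adjusted p of 0.054 to 0.083. Mcm6 gave 0.30 (adjusted p = 0.259). Birc5, the 1 G2/M member tested, gave -1.24 (SE 1.64, adjusted p = 0.559, edgeR), with 30 and 38 UMIs in 2 fresh libraries, 15 in 1 stored one and the other 3 listed at 0. Outside PT-like barcodes, Pcna stood at 32.6, 22.8 and 24.0 CPM fresh and 37.5, 45.3 and 46.4 stored, and Mcm2 at 6.22, 5.36 and 5.53 fresh and 10.5, 10.9 and 8.18 stored. Both genes were thus apart there too, with nearer values than in whole libraries, and these levels have no test.

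In females Mcm2 stood at 4.34, 5.53 and 4.69 CPM fresh and 8.84, 8.69 and 9.29 after storage, and Mcm6 at 0.827, 0.79 and 1.99 fresh and 3.60, 3.55 and 4.65 after storage. Both sets were apart. After scaling, Mcm2 rose by 0.50 (SE 0.16, adjusted p = 0.0238) and Mcm6 by 1.39 (SE 0.38, adjusted p = 0.0124, edgeR), 2 of 3 tested members, beside 28.9% of 11947 genes that rose and 58.0% called. The female fit had no block, although stored and fresh aliquots came from the same suspensions. The Mcm2 call was lost in 5 of 6 fits without 1 library (adjusted p 0.052 to 0.090) and under DESeq2 (adjusted p = 0.0702), and without the third cryopreserved library Mcm6 gave 1.28 (adjusted p = 0.0517). Pcna gave -0.14 (adjusted p = 0.315), with 12.3, 13.5 and 11.6 CPM after storage and 10.7, 9.90 and 11.7 fresh, which overlapped. Outside PT-like barcodes, Mcm2 stood at 5.10, 8.05 and 7.0 CPM fresh and 9.05, 9.21 and 9.36 stored, which were apart, and Mcm6 at 1.37, 1.64 and 3.93 fresh and 3.76, 3.92 and 4.90 stored, which overlapped. The part of the other classes in these differences was not tested. None of the G2/M members could be tested in females.

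The lists moved in both directions after storage. In C57BL/6J cells 4 of 21 S list genes rose and 1 fell, 4 of 16 G2/M genes rose and 1 fell, 4 of 10 drivers rose, and 3 of 11 brakes rose and 2 fell, with medians of 0.21, 0.18, 0.61 and 0.16 beside -0.13 for all genes. Of all genes 21.8% rose and 28.9% fell. In females 6 of 27 S list genes rose and 2 fell, 9 of 18 G2/M genes rose and 3 fell, 4 of 10 drivers rose and 1 fell, and 4 of 12 brakes rose and 2 fell. Their medians were 0.36, 0.34, 0.16 and 0.16, beside 0.02 for all genes, of which 28.9% rose and 29.1% fell. Cenpa led the G2/M genes that rose in both, by 1.76 and 1.66, and Cks2 those that fell, at -1.29 and -2.45. Tyms, which makes thymidylate, led the S list genes that fell, at -0.72 and -1.08, and Nasp, a histone chaperone, and Chaf1b, of the chromatin assembly complex, led those that rose, by 1.22 in C57BL/6J and 1.54 in females. Ccnd2, cyclin D2, led the drivers in both, by 1.66 in each, and Cdk4, partner of the D cyclins, fell in females, at -0.25, a call lost in 3 of 6 fits without 1 library and under DESeq2. Cdkn1a rose most of the brakes in C57BL/6J, by 2.97, with Rbl2 lowest at -0.75, and in females these were Cdkn2b, at 1.32, and Cdkn2c, at -0.89.

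Nuclei held less Pcna than cells in both sexes and less Mcm2 in females. Pcna stood at 38.9, 26.0 and 27.9 CPM in male cells and 4.79, 4.30 and 3.8 in male nuclei, and at 10.7, 9.90 and 11.7 in female cells against 2.24, 3.39 and 2.31 in SN_FANS_3x500g nuclei. No library overlapped. The log2 fold change was -3.00 in males (SE 0.23, adjusted p = 9.04e-06) and -3.03 in females (SE 0.16, adjusted p = 1.93e-07, edgeR). Mcm2 gave -2.22 in females (SE 0.22, adjusted p = 1.34e-05) and -1.49 in males (adjusted p = 0.0721), where 1 cell library was listed at 0. Without that library, the third, it gave -2.03 (adjusted p = 0.000697). Nuclei were counted over introns and exons and cells over exons only, and the part of this in the difference cannot be told apart.

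In males Mki67, Cdk1, Top2a and Ccnb1 had counts in nuclei alone, so their direction could not be read without filling in the zeros. In counts, Mki67 had 301, 108 and 113 UMIs in nuclei, Cdk1 130, 152 and 78, Top2a 34, 23 and 26 and Ccnb1 19, 18 and 15, and all were listed at 0 in the 3 cell libraries. They passed the test with Mcm6, 5 of 7 tested members, beside 53.6% of 14027 genes that were higher in nuclei and 81.3% called. All of these but Mcm6 had counts in nuclei alone, so the filter set their direction and the count of 5 is no reading of a difference. With each 0 set to 9 UMIs, the most the filter could hide at 1 UMI a barcode, Mki67 gave 1.88 (adjusted p = 0.0073) and Cdk1 1.39 (adjusted p = 0.0093, edgeR). In that setting these 2 stayed higher in nuclei, while Top2a turned to -0.74 (adjusted p = 0.049) and Ccnb1 to -1.40 (adjusted p = 0.0026, edgeR). Mcm6, at 2.44 (adjusted p = 0.0239) with 2 cell libraries at 0, then gave 0.63 (adjusted p = 0.087, edgeR). Its call was lost in 4 of 6 fits without 1 library. The filter can hide more where a barcode holds several UMIs, and Mki67 had 172 UMIs in 108 barcodes over all fresh cells. Introns were also counted in nuclei alone, and the part of either in these values was not tested. Birc5 was not tested.

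In females, whose cells were deeper and of 10x chemistry version 3, Cdk1 was the 1 member of 8 called higher in nuclei. Its log2 fold change was 3.19 (adjusted p = 0.0034, edgeR) with 2 cell libraries at 0, and DESeq2 gave an adjusted p of 0.106. Cdk1 had 215, 275 and 204 UMIs in nuclei, and 28 in the second cell library. The other values were -0.45 for Mki67, -0.24 for Top2a, 0.38 for Ccnb1, 0.06 for Birc5 and -0.43 for Mcm6, none past the test. With Pcna and Mcm2 lower, 3 of 8 members were called, beside 84.8% of 13762 genes (43.8% higher and 41.0% lower).

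Other cycle genes differed in both directions. In males 11 of 26 S list genes were higher in nuclei and 2 lower, and 15 of 28 G2/M genes higher and 8 lower, but only 3 and 2 of those that were higher had counts in every library. In females 8 of 34 S list genes were higher and 18 lower, and 10 of 29 G2/M genes higher and 9 lower, and 7 of each set of higher genes had counts throughout. Medians were 0.65 and 1.91 in males, beside 0.84 for all genes, and -0.44 and -0.12 in females, beside 0.10. Of all genes 53.6% were higher and 27.6% lower in male nuclei, and 43.8% and 41.0% in female ones. Gmnn, the inhibitor of replication licensing, at -2.1, and the histone chaperone Anp32e, at -2.35, led the genes lower in male nuclei, and Fen1, the flap endonuclease, at -3.00, and the tubulin Tubb4b, at -3.74, those lower in female nuclei. Brip1, Nusap1 and E2f2 had the largest fitted values in male nuclei, against cell libraries all listed at 0, and so have no readable fold. Ccne2 and Ect2 had the largest in female nuclei, against cell libraries partly at 0, and E2f3, at 2.64, led the drivers there. Of 11 drivers 4 were higher and 3 lower in male nuclei, and 4 higher and 5 lower in females, Ccnd2 being lowest, at -2.15 and -2.71. Of the brakes, 4 were higher and 7 lower of 11 in males, and 4 and 8 of 12 in females, with Rb1 at 1.49 and 2.75 and Cdkn1c at -5.98 and -5.91.

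To ask for more than 1 stray UMI, a barcode was called cycling where it had at least 1 UMI of at least 2 of the 5 G2/M members. Stray UMIs of 2 genes can still meet in 1 barcode. Their part among the cycling barcodes was not tested, so the name is that of the rule. The rule found few, and most barcodes with a member had 1 alone. In fresh cells 224 of 49208 barcodes (0.455%) had at least 1 of the 5 genes and 28 (0.0569%) were cycling, 9 of them with at least 3 genes and 1 with all 5. In nuclei 3754 of 98303 (3.82%) had at least 1 gene and 125 (0.127%) were cycling, 45 with at least 3 genes and 2 with all 5. Preserved cells gave 18 of 28448 (0.0633%), none with 3 genes. Cycling barcodes were deeper than the rest, with a median of 3393 against 1332 UMIs in fresh cells and 3359 against 2866 in nuclei, and 7.14% against 3.79% of them in cells and 16.8% against 6.59% in nuclei carried a doublet mark. Thinned to 1000 UMIs a barcode, 10 of 29741 cells (0.0336%, and 0.0942% of the same cells unthinned) and 44 of 84908 nuclei (0.0518%, and 0.140% unthinned) were cycling, and at 500 UMIs 6 of 41903 cells and 18 of 96950 nuclei were.

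Every nuclei library held cycling barcodes and 6 of 12 fresh cell libraries did. The other fresh libraries, and the preserved ones without cycling barcodes, had counts for at most 1 of the 5 genes. The rule could call none there, so these zeros are not measured. Shares over all fresh or preserved cells, and by class, include these libraries. Cold-dissociated C57BL/6J libraries had 3, 0 and 9, warm-dissociated ones 2, 1 and 0, male cells 0, 0 and 0, and female cells 0, 9 and 4. Where a gene was removed by the filter its barcodes could not be called, and in the male cell libraries this leaves room for up to 0.615% to 0.892% of barcodes. In female cells replicate 2, the library with counts for all 5 genes, 9 of 7928 (0.114%) were cycling, by class NK-like 2, unnamed 2, and PT-like, T-like, ascending loop-like, dendritic-like and macrophage-like 1 each. Nuclei had 13, 13 and 5 in males, and in females 17, 12 and 4 by SN_FANS_3x500g, 12, 11 and 11 by SN_FANS_1x2000g and 11, 9 and 7 by SN_sucrose. SN_FANS nuclei were sorted on DAPI, a DNA stain, and SN_sucrose nuclei were not sorted, and the part of that gate in the shares was not tested.

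**Figure D2:**
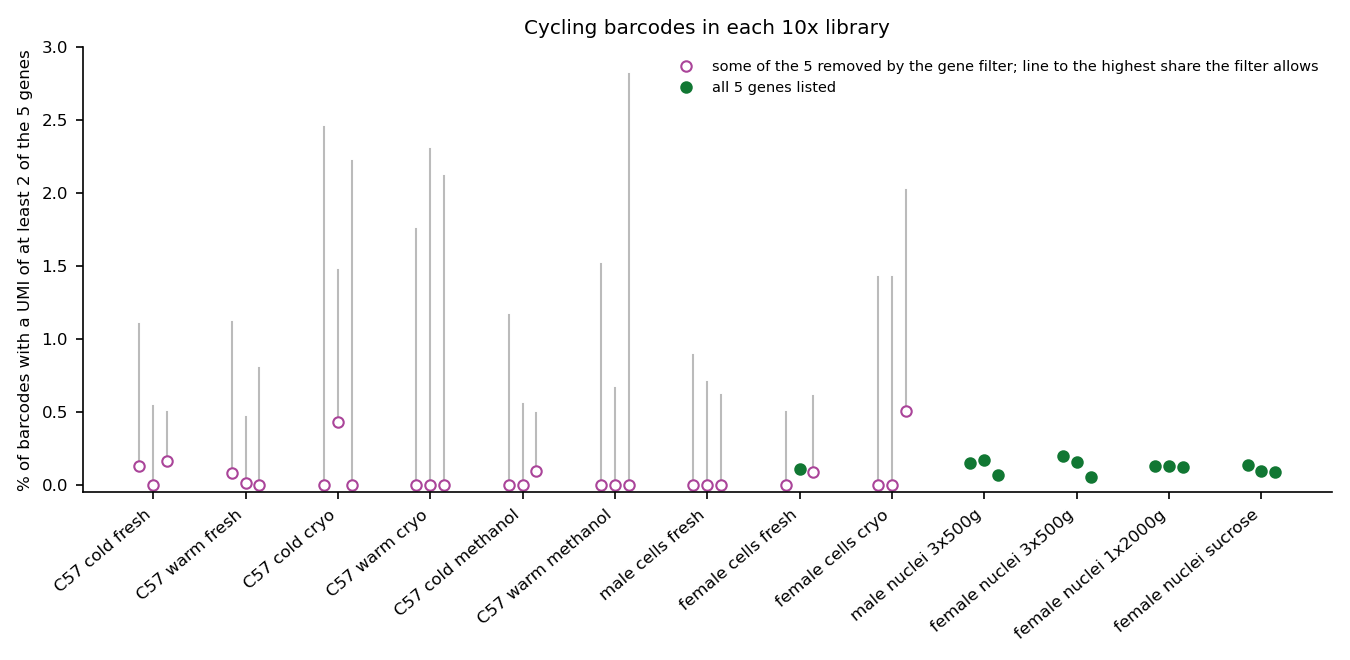
Share of barcodes called cycling in each 10x library, in percent, with 1 point a library and the groups along the axis. All 12 nuclei libraries lie between 0.0574% and 0.196%, and libraries at 0 are cell libraries with counts for at most 1 of the 5 genes, where the rule could call none.

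None of 10 contrasts of groups passed an exact permutation test over libraries, where 3 against 3 cannot go below p = 0.1 (two-sided), and the lowest value adjusted over the 10 was 0.667. Cell libraries with counts for fewer than 2 of the 5 genes entered at 0, which the rule had fixed. Warm minus cold fresh C57BL/6J cells was -0.0647 percentage points (p = 0.4, exact permutation test). Male nuclei minus male cells was 0.129 points, with no overlap (p = 0.1, exact, the smallest it can give), against cell libraries with all G2/M members at 0. Female SN_FANS_3x500g nuclei minus cells was 0.0690 points (p = 0.3, exact). The other 2 nuclei protocols differed from SN_FANS_3x500g by -0.0078 points for SN_FANS_1x2000g and -0.0280 for SN_sucrose (p = 1 and 0.6, exact). Preserved minus fresh libraries ranged from -0.0650 points for cold methanol-fixed to 0.1 for female cryopreserved cells (p = 0.4 and 1, exact). In preserved libraries the 18 cycling barcodes came from 3 libraries, 7 in the second cold cryopreserved, 5 in the third cold methanol-fixed and 6 in the third female cryopreserved one. By class they were T-like 5, dendritic-like 5, endothelial-like 3, PT-like 2, macrophage-like 2 and distal convoluted tubule-like 1.

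Genes that the rule did not use set the cycling barcodes apart. In nuclei, the S list without members and Pcna-ps2 took 28.5 UMIs per 10000 in cycling barcodes and 4.44 in other barcodes of the same library and class, and the G2/M list took 79.4 and 6.90. The log2 differences were 2.59 (SD 0.56) and 3.4 (SD 0.60), higher in 12 of 12 libraries for each (p = 0.000488, exact sign-flip permutation test, the smallest it can give, adjusted p = 0.000977 over 4 tests). In 4 fresh cell libraries with at least 3 cycling cells, 25 cells in all, the S list took 31 against 4.00 and the G2/M list 94.9 against 8.07 UMIs per 10000, log2 differences of 2.78 (SD 0.57) and 3.54 (SD 0.11), higher in 4 of 4 (p = 0.125, exact, the smallest 4 libraries can give).

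**Figure D3:**
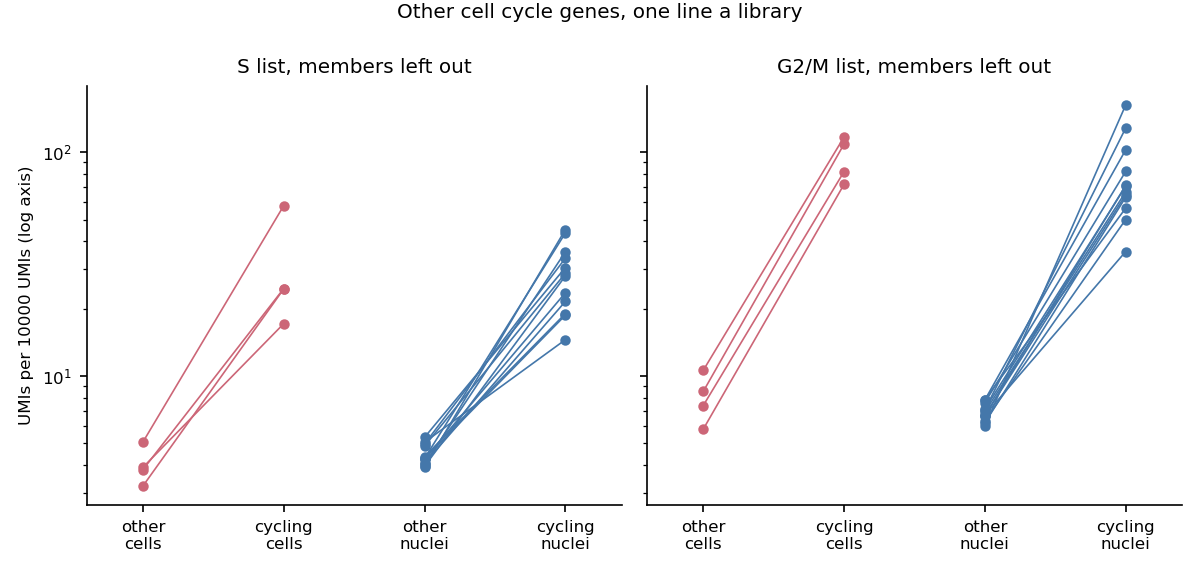
UMIs per 10000 UMIs of the S list and the G2/M list, without the 8 members, in cycling barcodes and in other barcodes of the same library and class, on a log axis with 1 pair of points a library. Cycling barcodes lie above the others in all 12 nuclei libraries and in all 4 fresh cell libraries with at least 3 cycling cells.

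The genes most like the members in this sense came in part from the fixed cycle lists, 8 of the 10 in cells and 4 of the 9 named in nuclei. Genes were ranked by the ratio of UMIs per 10000 in cycling to other barcodes, with a small constant added to both levels. The constant lowers the ratio where the level in other barcodes is very low, and the order of the genes depends on it. Among 2310 genes with a UMI in at least 20% of the cycling fresh cells, the top 10 were Rrm2, Ube2c, Nusap1, Cdca3, Cenpf, Cdc20, 2810417H13Rik, Tpx2, Cdca8 and Tk1. Rrm2, a subunit of ribonucleotide reductase, was seen in 15 of 28 cycling cells with a ratio of 121, and Nusap1, a spindle protein, in 17 of 28. In nuclei, among 3195 genes, the top 9 were Cenpf, Neil3, Ckap2, Cdca2, Kif15, Prc1, Kif11, Lockd and Aspm. Cenpf, a kinetochore protein, was seen in 42 of 125 cycling nuclei with a ratio of 220, and Lockd, a long noncoding RNA next to a kinase inhibitor gene, in 64 of 125. These ratios describe the barcodes pooled over libraries and have no test.

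Single members differed in nuclei, where all had counts, in how often another of the 5 genes was seen with them. In nuclei Top2a was seen in 229 barcodes, of which 38.0% had another of the 5 genes, Birc5 in 246 (19.1%), Mki67 in 1026 (9.36%), Ccnb1 in 318 (7.55%) and Cdk1 in 2123 (2.78%). Cdk1, the most often seen, was thus mostly alone. In fresh cells the shares depend on which other genes passed the filter in the library and cannot be compared between genes. Of the 25 barcodes with Ccnb1, 11 were in female cells replicate 1, where the other G2/M members stood at 0, and all 17 with Cdk1 were in replicate 2, which had counts for all 5. Top2a was seen in 36 barcodes with 52.8% accompanied, Cdk1 in 17 (47.1%), Birc5 in 79 (25.3%), Mki67 in 108 (19.4%) and Ccnb1 in 25 (4.0%). The replication genes were seen more often in cells and seldom with a G2/M member, Pcna in 1629 cells (1.72% accompanied), Mcm2 in 506 (2.17%) and Mcm6 in 353 (5.10%), and in nuclei in 859 (5.36%), 637 (3.92%) and 654 (5.96%). Mki67 with Top2a was the pair in 67 nuclei and 13 fresh cells, and Mki67 with Birc5 in 14 fresh cells. Mki67 with Cdk1, the G2/M members seen in the most nuclei, met in 43 nuclei. How many of these pairs were stray UMIs that met was not tested.

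A lone UMI was also met in a class regarded as post-mitotic. Of 671 podocyte-like nuclei, 28 (4.17%) had at least 1 of the 5 genes, 27 of them Cdk1, at a median depth of 2669 UMIs, beside 3.82% of all nuclei, where barcodes that were not cycling had a median of 2866, and 0 had a second gene. The share of all nuclei with at least 1 G2/M member thus did not exceed that of podocyte-like nuclei. Cdk1 was seen in 4.77% of principal-like, 5.50% of mesangial and mural-like and 0.426% of endothelial-like nuclei. Mki67 was uneven between libraries. It was seen in 289 male nuclei of replicate 1 (3.36%), of which 64.4% were PT-like, beside 104 (1.36%) and 113 (1.49%) in the others, and over all nuclei 59.6% of barcodes with Mki67 were PT-like, beside 45.79% of all barcodes. No podocyte-like nucleus had Mki67, Top2a or Birc5. In 1284 podocyte-like fresh cells, 0 had any of the 5 genes, of which few had counts in those libraries.

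In fresh cells the largest shares of cycling barcodes were in dendritic-like, NK-like and T-like cells, and no class tested passed. Some immune classes had none, with 0 of 530 B-like, 0 of 398 monocyte-like and 0 of 19 neutrophil-like cells. At the share of the other barcodes, 0.293 B-like and 0.154 monocyte-like cycling cells would have been met in the libraries tested. These zeros thus leave no reading of a difference between classes. T-like cells had 7 of 712 cycling (0.983%, 95% Wilson interval 0.477 to 2.02), beside 0.0433% of other barcodes. Per library the T-like share was higher by 1.06 points (SD 1.46) over 12 libraries, higher in 5 and lower in 1 (p = 0.0625, exact sign-flip permutation test, adjusted p = 0.175 over 14 classes). Thinned to 500 UMIs, where 0 of 543 T-like cells were cycling, the difference turned to -0.0113 points. Of the 7, 5 fell in 1 C57BL/6J cluster. Dendritic-like cells had 5 of 173 (2.89%, Wilson 1.24 to 6.59) and were in too few libraries for a test. Their name is weak, since 43.45% of those not cycling had at least 2 own markers and 79.17% at least 2 PT markers. They were also deep, with a median of 3503 UMIs beside 1391 in T-like and 1770 in PT-like cells, and the rule finds more in deep barcodes. PT-like cells, the largest class, had 4 of 22561 (0.0177%), beside 0.0901% of other barcodes (adjusted p = 0.175). Macrophage-like cells had 3 of 1857, NK-like 2 of 153, descending thin limb-like 2 of 589, unnamed 2 of 7775, and endothelial-like, distal convoluted tubule-like and ascending loop-like 1 each. Intervals here cover counting error only, and 0 of 14 classes passed. Only 6 of 12 fresh libraries held a cycling barcode, and in the rest, where the rule could call none, every class difference was 0. After adjustment over 14 classes the test could thus hardly pass, and its outcome says little of the classes.

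**Figure D4:**
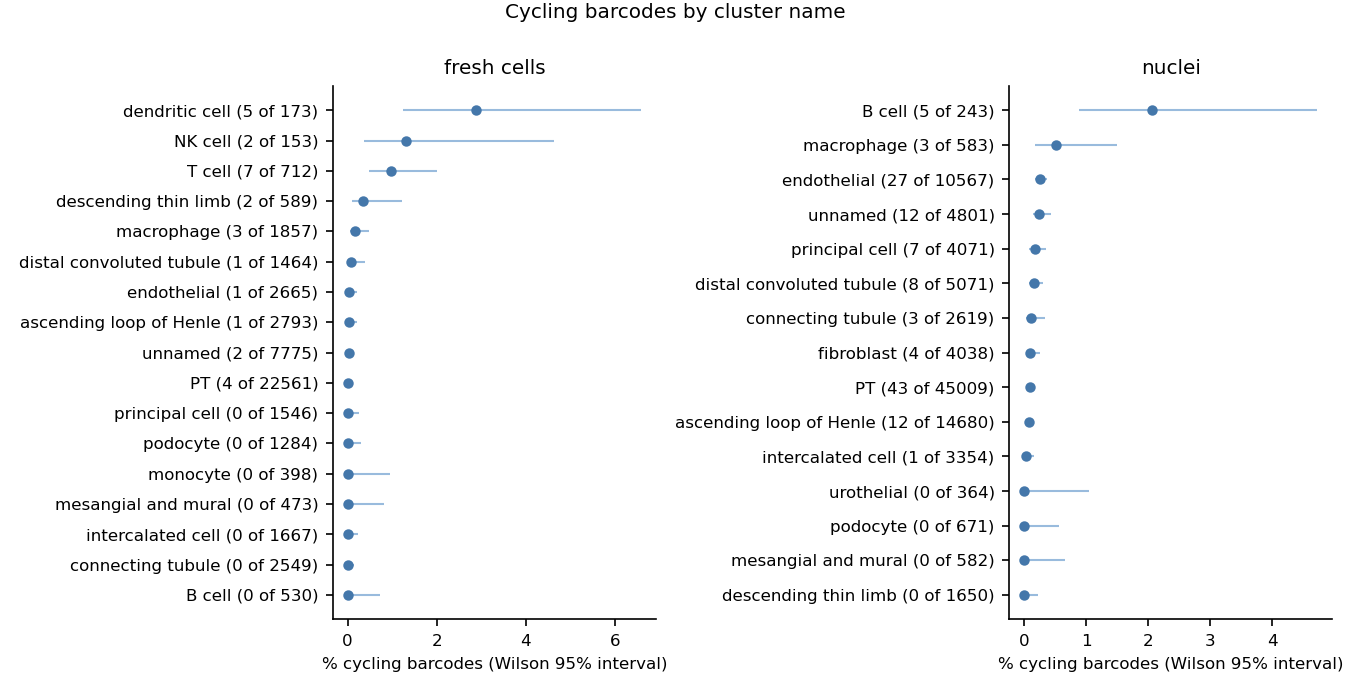
Share of barcodes called cycling by class, in percent with 95% Wilson intervals, for fresh cells and nuclei. Dendritic-like, NK-like and T-like cells are highest among the fresh classes, with 5 of 173, 2 of 153 and 7 of 712, and endothelial-like nuclei, with 27 of 10567, lie above PT-like nuclei, with 43 of 45009.

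In nuclei the class with the most cycling barcodes was PT-like, which also held the most nuclei. PT-like nuclei gave 43 of 45009 (0.0955%), a lower share than the 0.154% of other barcodes, with a difference of -0.0573 points, lower in 10 of 12 libraries (p = 0.0269, exact sign-flip permutation test, adjusted p = 0.0627). Within the female libraries the PT-like share was lower in 9 of 9 (p = 0.00391, exact) and within the 3 male ones the difference was 0.0313 points (p = 0.75, exact). Endothelial-like nuclei gave 27 of 10567 (0.256%, Wilson 0.176 to 0.372), beside 0.112%, higher by 0.192 points (SD 0.325), in 7 of 12 libraries (p = 0.0601, exact, adjusted p = 0.109). Of these, 13 of 27 were in 1 female cluster of 1088 nuclei (1.195%), over 7 libraries, and 5 of the 13 had at least 3 of the 5 genes. That cluster was led by Vash1, Nos2, Nr5a2, Apln and Piezo2. In males 10 of the PT-like cycling nuclei were in 1 cluster of 2775 (0.360%), over all 3 libraries.

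The remaining cycling nuclei were spread over ascending loop-like (12 of 14680), unnamed (12 of 4801), distal convoluted tubule-like (8 of 5071), principal-like (7 of 4071), B-like (5 of 243), fibroblast-like (4 of 4038), connecting tubule-like (3 of 2619), macrophage-like (3 of 583) and intercalated-like (1 of 3354). No class was higher past the test and 5 of 14 were lower. They were podocyte-like, descending thin limb-like, mesangial and mural-like, urothelial-like and intercalated-like. At the share of the other barcodes, 0.869, 2.13, 0.740, 0.441 and 4.38 cycling nuclei would have been met in them, and 0, 0, 0, 0 and 1 were. So few leave no reading of a difference. The first 4 classes were at 0 in every library and so lower in every library by construction, and the 1 intercalated-like nucleus was in a male library. The 5 B-like nuclei rest on weak names. Only 1 of the 5 had a marker of B cells, all 5 had at least 2 PT markers, and 28.0% of the cluster carried a doublet mark.

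Markers of the class itself were met in the cycling barcodes of most classes. All 43 PT-like and all 27 endothelial-like cycling nuclei had at least 2 markers of their own class, and so did all 7 T-like cycling cells. Among those not cycling, 100%, 97.8% and 84.82% had them too. The classes were named from the same markers, so this is no separate check of the names. Of the 9 named fresh classes with cycling cells, 7 had at least 2 own markers in all of them, and the others had them in 3 of 5 dendritic-like and 0 of 2 descending thin limb-like cells, of which 4 and 2 had at least 2 PT markers. PT markers were met beside them. At least 2 PT markers were found in 16 of 27 endothelial-like cycling nuclei, beside 81.69% of endothelial-like nuclei that were not cycling, and in 6 of 7 T-like cycling cells, beside 53.33% of other T-like cells. Their part in the calls was not tested.

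Phase calls were far more common than cycling barcodes. With Seurat-type scores from the study's full S and G2/M lists, 22.8% of fresh cells were called S and 27.1% G2/M, and 33.0% and 34.4% of nuclei. Podocyte-like barcodes were called S or G2/M in 19.6% and 19.5% of fresh cells and 19.5% and 32.2% of nuclei, with 0 cycling. At the share of the other barcodes, 0.872 cycling cells and 0.869 cycling nuclei would have been met in this class, so that 0 says little. In each library 13 to 37 genes of the S list had counts in fresh cells and 35 to 40 in nuclei, and 14 to 33 and 36 to 48 genes of the G2/M list.

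Nuclei were called S and G2/M more often than cells. Male cells had 15.5, 18.3 and 6.77% in S and 30.4, 31 and 25.8% in G2/M, and male nuclei 28.7, 26.6 and 28.1% and 35.6, 34.8 and 35.2%. Female cells had 31.7, 30.7 and 29.1% in S and 21.9, 21.9 and 24.3% in G2/M, and SN_FANS_3x500g nuclei 34.6, 36.2 and 35.9% and 34.5, 34.4 and 35.0%. No library overlapped in any of the 4 comparisons. The differences were 14.3 points for S and 6.17 for G2/M in males and 5.03 and 11.9 in females (each p = 0.1, exact permutation test, the smallest it can give). Thinned to 500 UMIs a barcode, the G2/M difference turned to -6.01 points in males (-6.24 at 1000 UMIs) and -0.683 in females (p = 0.6, exact), and was 4.36 in females at 1000. Thinning left 549 to 2110 barcodes a male cell library at 500 UMIs and 22 to 870 at 1000, of 2467 to 3577. The S differences kept their sign, at 7.51 and 5.34 points in males and 5.93 and 7.90 in females.

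**Figure D5:**
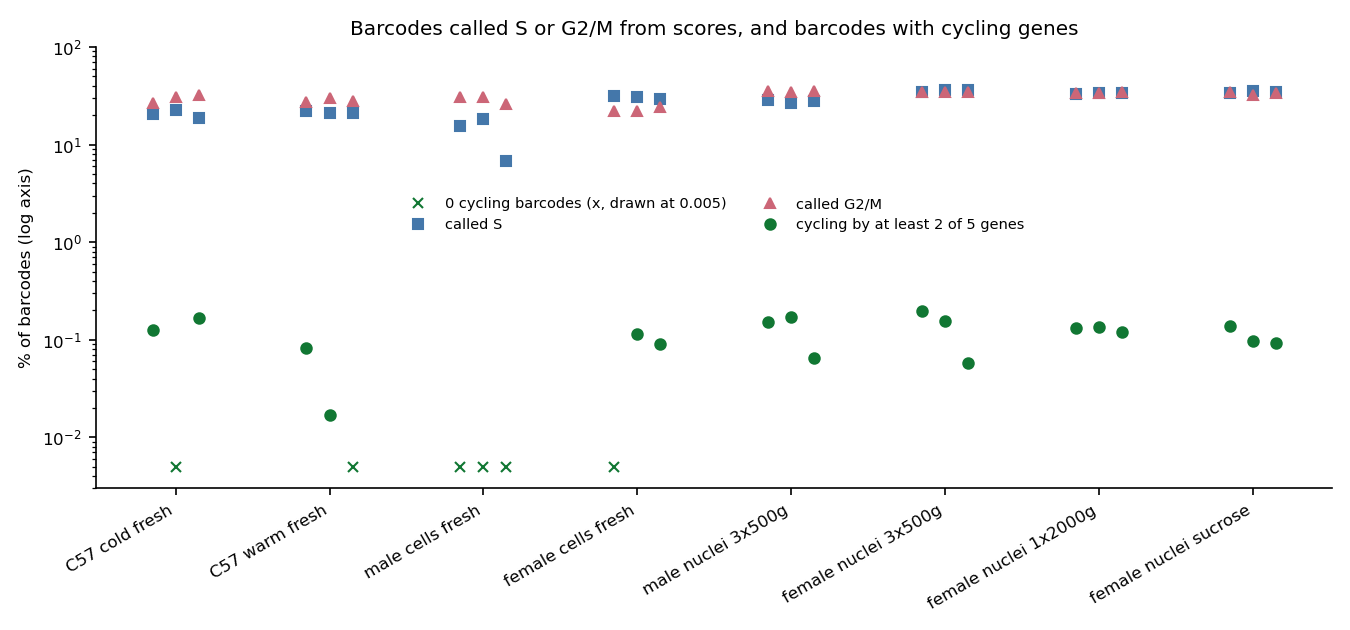
Share of barcodes called S or G2/M by library beside the share called cycling, in percent on a log axis, with libraries at 0 drawn as crosses at the foot. Phase calls lie at 6.77% of barcodes or more in every library plotted, and cycling barcodes at 0.196% or less.

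The cycling barcodes were a small part of the barcodes called S or G2/M. With the full lists, which hold all members but Ccnb1, 21 of 13318 G2/M-called fresh cells (0.158%), 7 of 11227 S-called (0.0623%) and 0 of 24663 G1 cells were cycling, and in nuclei 105 of 33828 (0.310%), 19 of 32394 (0.0587%) and 1 of 32081. With the members taken out of the lists, 20 of 13465 G2/M-called cells (0.149%), 8 of 10779 S-called (0.0742%) and 0 of 24964 G1 cells were cycling. In nuclei these were 80 of 33664 (0.238%), 28 of 32282 (0.0867%) and 17 of 32357 (0.0525%).

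Single members, as a readout that those lists did not use, were higher in called barcodes by small amounts. In fresh cells, 0.661% of G2/M-called barcodes (89 of 13465) had a G2/M member, beside 0.268% of G1 barcodes (67 of 24964), higher by 0.363 points a library (SD 0.499), in 8 of 12 (p = 0.0352, exact sign-flip permutation test). Within the 6 C57BL/6J libraries the difference was 0.625 points, higher in 6 of 6 (p = 0.03125, exact, the smallest 6 libraries can give), in the 3 female ones 0.201 points (p = 0.75, exact), and in the male ones all G2/M members stood at 0. Warm and cold C57BL/6J libraries carry the same animal codes, so these 6 may share mice, and the tests over 6 and 12 libraries take them as independent. In nuclei the shares were 4.02% (1354 of 33664) and 3.68% (1190 of 32357), higher by 0.337 points, in 10 of 12 libraries (p = 0.0352, exact), and by 0.787 points within the 3 male (p = 0.25, exact, the smallest 3 libraries can give) and 0.187 within the 9 female libraries (higher in 7 of 9, p = 0.230, exact).

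The replication members followed the S calls in cells. At least 1 of Pcna, Mcm2 and Mcm6 was seen in 7.26% of S-called and 3.8% of G1 fresh cells, a difference of 3.14 points, higher in 12 of 12 libraries (p = 0.000488, exact sign-flip permutation test, the smallest it can give). Thinned to 500 UMIs, it was 1.22 points, in 12 of 12 libraries (p = 0.000488, exact), and that of the G2/M members with the G2/M calls of cells was 0.221. In nuclei the shares were 2.33% and 2.03%, higher by 0.241 points in 8 of 12 libraries (p = 0.0825, exact). Adjusted over these 4 tests, the values were 0.0469 for the G2/M calls of cells and of nuclei, 0.00195 for the S calls of cells and 0.0825 for those of nuclei.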

How the data were processed

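The members, the marker lists and the tests were chosen with earlier results of these data known. For 39 10x libraries and 15 bulk samples the authors deposited raw counts, UMIs a gene and barcode for cells and nuclei and reads a gene for bulk RNA. Per the submitters' processing notes and the methods, bulk reads were mapped to GRCm38 with STAR 2.6.1a and counted with featureCounts (strandedness not given in the sources used here), and 10x reads were counted with Cell Ranger 2.1.1, over exons for cells and over introns and exons for nuclei. Barcodes were called by EmptyDrops and outliers removed, genes seen in under 10 barcodes were dropped, and mitochondrial genes were removed from nuclei, so low members are censored in small libraries. Preserved aliquots entered the tests of library sums and of cycling shares, and no test of classes or phases.

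From these counts, UMIs were summed over each library and tested with edgeR 4.0.16 in R 4.3.3 (quasi-likelihood test, TMM, filterByExpr, Benjamini-Hochberg adjustment over all genes tested, threshold 0.05). On simulated data the 2-fold changes were recovered in 41% to 86% of genes and the 4-fold changes in 72% to 100%, depending on the comparison. False calls on these data were 5.04% to 8.38%, beside the threshold of 0.05. CPM per kb uses the exon union of each gene. Barcodes were clustered in scanpy 1.11.5 with leidenalg 0.10.2 (resolution 2) without any cell cycle gene, and a class was named "-like" only from marker lists, since the authors' annotation was not used here. A barcode was called cycling with at least 1 UMI of at least 2 of the 5 G2/M members. Classes were compared within libraries that had at least 20 barcodes of the class, where at least 6 libraries had it. Doublets were marked and kept. Phases were scored against all genes of the same expression bin (25 bins). Exact tests went through every relabelling or sign flip in numpy 2.4.6, and Wilson intervals used scipy 1.17.1. Exact p-values were adjusted over each family of tests. Sign-flip tests took libraries as independent, although warm and cold C57BL/6J libraries carry the same animal codes.

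The genes named are the 8 members, the gene with the largest called change in each direction in each of 4 pathway lists (S, G2/M, drivers, brakes), and the 10 genes most like the members in cycling barcodes, of which 1 in nuclei is not reported here. Those lists are of the study's choosing for phase scores, or textbook regulators. Alternatives were DESeq2 1.42.0, other size factors, no low count filter, other cycling rules, thinning to 500 or 1000 UMIs, doublets removed, resolution 1, values within batches and each library left out. Added after the data were seen were a block on the animal code in the barcode names, zeros set to 9 UMIs, rules without Cdk1, and the class test over libraries with counts for at least 2 of the 5 genes. Per the methods, preserved aliquots were the cells left of the fresh suspensions, and the correlations of same-coded deviations from group means were 0.060, 0.032 and 0.077 for cryopreserved and fresh C57BL/6J libraries and 0.18, 0.17 and -0.008 for warm and cold ones. Protein sequences were not used here.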

Additional observations from a re-analysis of the deposited data

How the results depend on the processing

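Directions and calls of the members held under most alternatives, and those that did not were near 0, near the threshold or censored by the gene filter. Without a low count filter, bulk warm against cold dissociation gave 1912 called genes in place of 1224, and without 1 sample 776 to 924 (776 without warm replicate 3). In fresh cells that comparison gave 1801 genes, and 444 to 2432 without 1 library (444 without cold replicate 2, 754 without cold replicate 3, 771 without warm replicate 1 and 810 without warm replicate 3). Leaving out 1 library turned the sign of members that were not called, with log2 ranges of -0.0446 to 0.0938 for Mcm6 in bulk warm against cold, -0.10 to 0.0046 for Mcm2 in whole kidney, -0.90 to 0.23 for Birc5 in fresh warm against cold, and, in female nuclei against cells, -1.02 to 0.13 for Mki67, -0.81 to 0.30 for Top2a, -0.14 to 0.84 for Ccnb1, -0.48 to 7.28 for Birc5 and -0.62 to 0.0404 for Mcm6. With members at 0 set to 9 UMIs, Top2a gave -0.74 and Ccnb1 -1.40 in male nuclei against cells, and Ccnb1 -0.071 and Birc5 -0.70 in female ones, by the construction of that alternative. The replicate block on the animal code gave 1585 called genes in fresh warm against cold cells and 5007 (against 5780) in C57BL/6J cryopreserved against fresh cells, turned Birc5 to 0.22 in the former and, beside Mcm2 in the latter and Atad2 in the former, changed no other call of a gene named here.

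The number of cycling barcodes moved with the rule and the depth. It was 9 in fresh cells and 45 in nuclei with at least 3 of the 5 genes, 136 and 227 with at least 2 of all 8 members, 6 and 18 at 500 UMIs and 10 and 44 at 1000 UMIs. Group contrasts, none of which passed its test, turned to 0.104 points for warm against cold fresh cells, 0.102 for warm cryopreserved against fresh and -0.0548 for female SN_FANS_3x500g nuclei against cells with 2 of all 8 members. With at least 3 of the 5 genes, they turned to -0.0246 for cold and -0.0210 for female cryopreserved cells. At 500 UMIs they turned to -0.0243 for female cryopreserved cells (-0.0227 at 1000), -0.0204 for female nuclei against cells and 0.0222 for SN_FANS_1x2000g against SN_FANS_3x500g. Without 1 library the ranges were -0.0979 to 0.117 for cold cryopreserved, -0.0681 to 0.185 for female cryopreserved cells, -0.0476 to 0.0219 for SN_FANS_1x2000g and -0.0678 to 0.00167 for SN_sucrose.

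By class, the T-like difference turned to -0.0113 points at 500 UMIs, where 6 cycling cells remained in all. In nuclei 2 classes were lower with 2 of all 8 members and 3 with doublets removed, in place of 5. Intercalated-like nuclei turned to 0.0165 at 500 UMIs and 0.00249 within males, urothelial-like to 0.107 with 2 of all 8 members and PT-like to 0.0313 within males. The other cycle genes gave 2.53 and 3.29 within the 3 male nuclei libraries (p = 0.25, exact, the smallest 3 can give). The G2/M phase difference turned to -6.01 and -6.24 in males and -0.683 in females on thinning. Member UMIs in G2/M-called fresh cells differed by 0 points within male and 0.201 within female libraries, in S-called ones by 1.18 and 2.38, and in G2/M-called nuclei by 0.787 and 0.187. In S-called nuclei the difference was 3.79 with the full lists, which hold the replication members, and 0.171 at 500 UMIs, both past the test. Except where a construction is named, the cause of these changes was not tested. Depth and the gene filter limit what male and preserved cells can show.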
